A study of Mus musculus with 2 samples.

Results

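The odorant receptor genes numbered Olfr1200 to Olfr1318 were followed in single cells of the mouse olfactory epithelium. Members were the gene symbols of the deposited matrix that start with Olfr and carry a number within that range, whatever the suffix, without 1 symbol of it. This gave 100 of the 1135 receptor symbols in the matrix, or 8.81%, among 31053 genes in all. GENCODE M21 lists all 100 as protein coding genes of chromosome 2 on the mouse build GRCm38, which is mm10. They lie in 2 blocks. Block 1 holds 62 genes from Olfr1200 to Olfr1274-ps (start 88763511, end 90403897) and block 2 holds 38 genes from Olfr1275 to Olfr1318 (start 111230360, end 112159157), with 20.8 Mb between them.

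An odorant receptor is a membrane protein of the sensory cilia that couples to the G protein Golf and opens a cyclic nucleotide-gated channel. Each mature olfactory sensory neuron (OSN) transcribes a single receptor gene from 1 allele, and the receptor gene also steers where its axon ends in the olfactory bulb. Receptors are used in zones of the epithelium, from dorsal to ventral, and odour-driven activity sets the level of a group of genes in the mature neuron, with S100a5 raised and Calb2 lowered by activity.

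The animal was 1 male of strain C57BL/6, with 1 naris closed at postnatal day 14 (unilateral naris occlusion) and cells collected at postnatal day 28. The labels give 1 sample of the closed left side and 1 of the open right side, so both groups share strain, sex, age and surgery, and the open side is not that of an untouched animal. Cells had been frozen after dissociation and passed through dead cell removal before capture with a Chromium 3′ v3 kit. Nothing in the sources used here ties the barcode suffixes 1 and 2 of the joint matrix to a side, so the suffixes are called library 1 and library 2, no side is assigned to either, and ratios are library 2 over library 1. With 1 library per side no comparison of the libraries could be tested. Brackets give exact 95% intervals for counting error only, from the binomial distribution where the value is a share and from the Poisson where it is a level.

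Library 1 held 4501 barcodes and library 2 held 7990, of which 3032 and 5266 were kept, with medians of 5528 and 5139.5 unique molecular identifiers (UMIs, one per captured transcript) per kept cell. The libraries shared 12 barcode sequences, 6 of them among kept cells and 0 among cells assigned to a member. Receptor assignment required 3 or more UMIs of 1 receptor, making up no less than 2 in 3 of all receptor UMIs in that cell. This assigned 736 cells of library 1 and 1152 of library 2. Of the 1888, 908 lay in the mature OSN-like class, 352 in the immature OSN-like class, 343 in cluster 5, which had transcripts of both stages and was left unnamed, and 131 in cluster 9, an unnamed cluster with a median of 12852.5 UMIs per cell.

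Per gene, members were used more often than other receptors. They were the receptor of 299 of the 1888 assigned cells, 15.8% (14.2 to 17.6), against their 8.81% of receptor symbols. That is 2.99 cells per member and 1.54 per other receptor symbol, a ratio of 1.95. The share was 18.3% (15.6 to 21.3) in library 1, from 135 cells, and 14.2% (12.3 to 16.4) in library 2, from 164 cells. The neighbouring number range, Olfr987 to Olfr1199, with 151 symbols or 13.3% of all, held 1.14 cells per symbol. The members' share lay above their share of symbols in both libraries, and the intervals of the libraries overlapped. Block 1 had 197 cells, or 3.18 per gene, and block 2 had 102, or 2.68 per gene. With at most 5% mitochondrial UMIs the share was 13.7%.

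The share was alike along the stages that express receptors. In mature OSN-like cells it was 16.3% (13.95 to 18.9), from 148 of 908 cells. In cluster 5 it was 14.9% (11.3 to 19.1), and in immature OSN-like cells 12.8% (9.48 to 16.7). Cluster 9 had 21.4% (14.7 to 29.4), from 28 cells. Sustentacular-like cells, a support cell class, do not use odorant receptors; 43 of 1750 were assigned one and 8 of these 43 were members, 18.6% (8.39 to 33.4). The intervals of these classes overlap.

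**Figure D1:**
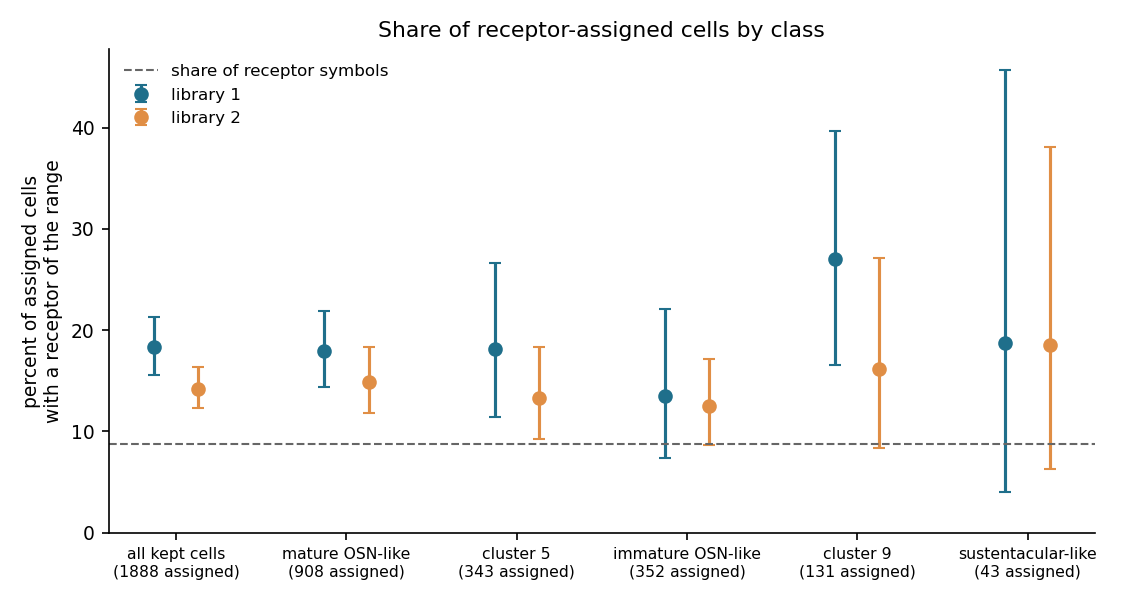
Percent of receptor-assigned kept cells whose receptor is in the Olfr1200 to Olfr1318 range (y axis), by cell class and library (x axis; blue library 1, orange library 2). Points are shares, bars are exact 95% binomial intervals for counting error, and the dashed line is the range's 8.81% of receptor symbols; every point lies above the line, and the intervals of immature OSN-like cells of both libraries, of cluster 9 of library 2 and of sustentacular-like cells reach it.

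More of the members than of other receptors were seen at all. At least 1 kept cell was assigned to 76 of the 100 members, while 58.1% of all receptor symbols and 56.3% of the other symbols had one. A cell in each library was found for 44 members, against 24.1% of all receptor symbols. Of the remaining members with a cell, 7 had cells in library 1 alone and 25 in library 2 alone, the library with more cells. The shares of members with a cell were alike in both blocks, 47 of 62 in block 1 and 29 of 38 in block 2. Of the 24 members with no cell, most still had scattered UMIs: 93 of the 100 members had at least 1 UMI in kept cells.

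Annotation moved with detection. A Chromium 3′ library reads the end of a transcript, and the 3 members without an annotated 3′ UTR (untranslated region) had no cell, as had 74 of the 75 other receptors without one. Among genes with an annotated 3′ UTR, 76 of 97 members (78.4%) and 60.6% of 960 other receptors had a cell. The median annotated 3′ UTR was 1913 bases for those members and 1650.5 for the other receptors. Of the 5 members whose symbol carries a pseudogene suffix (-ps), 2 had a cell, with 3 cells in all. The part of 3′ annotation in the members' share was not tested.

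Use was uneven among members. There were 24 members with 0 cells, 14 with 1, 39 with 2 to 4, 17 with 5 to 9 and 6 with 10 or more. The 12 most used members held 40.8% of member cells. Olfr1228 was assigned to 6 cells of library 1 and 8 of library 2, Olfr1264 to 8 and 6, and Olfr1211 to 8 and 6. Olfr1226 and Olfr1260 each had 8 and 4, and Olfr1301, the most used gene of block 2, had 8 and 3. Next came Olfr1297 with 4 and 5 cells, Olfr1256 and Olfr1229 with 5 and 3 each, Olfr1222 and Olfr1277 with 3 and 4 each, and Olfr1254 with 2 and 4. At such counts the order of neighbours in this list is within counting error. Olfr1228, Olfr1264 and Olfr1211, with 14 cells each, tied at rank 9 of all 1135 receptor symbols.

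Along the chromosome, runs of members with cells were broken by 1 or 2 members without cells. Neighbours here are members next in order, whatever other genes lie between them. Whether the order differed from a random one was not tested. Olfr1225, Olfr1226, Olfr1228 and Olfr1229 are neighbours on the minus strand and together had 38 cells. Of the 4 genes that follow, Olfr1230, Olfr1231, Olfr1232 and Olfr1233, only Olfr1231 was assigned, to 1 cell. A stretch of 15 neighbouring genes from Olfr1252 to Olfr1269 had a cell for every gene and 72 in all, and the first 11 genes of block 1, Olfr1200 to Olfr1214, had 42. Stretches were picked after their counts were seen. Block 2 opened with 7 used genes, Olfr1275 to Olfr1281, with 36 cells.

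**Figure D2:**
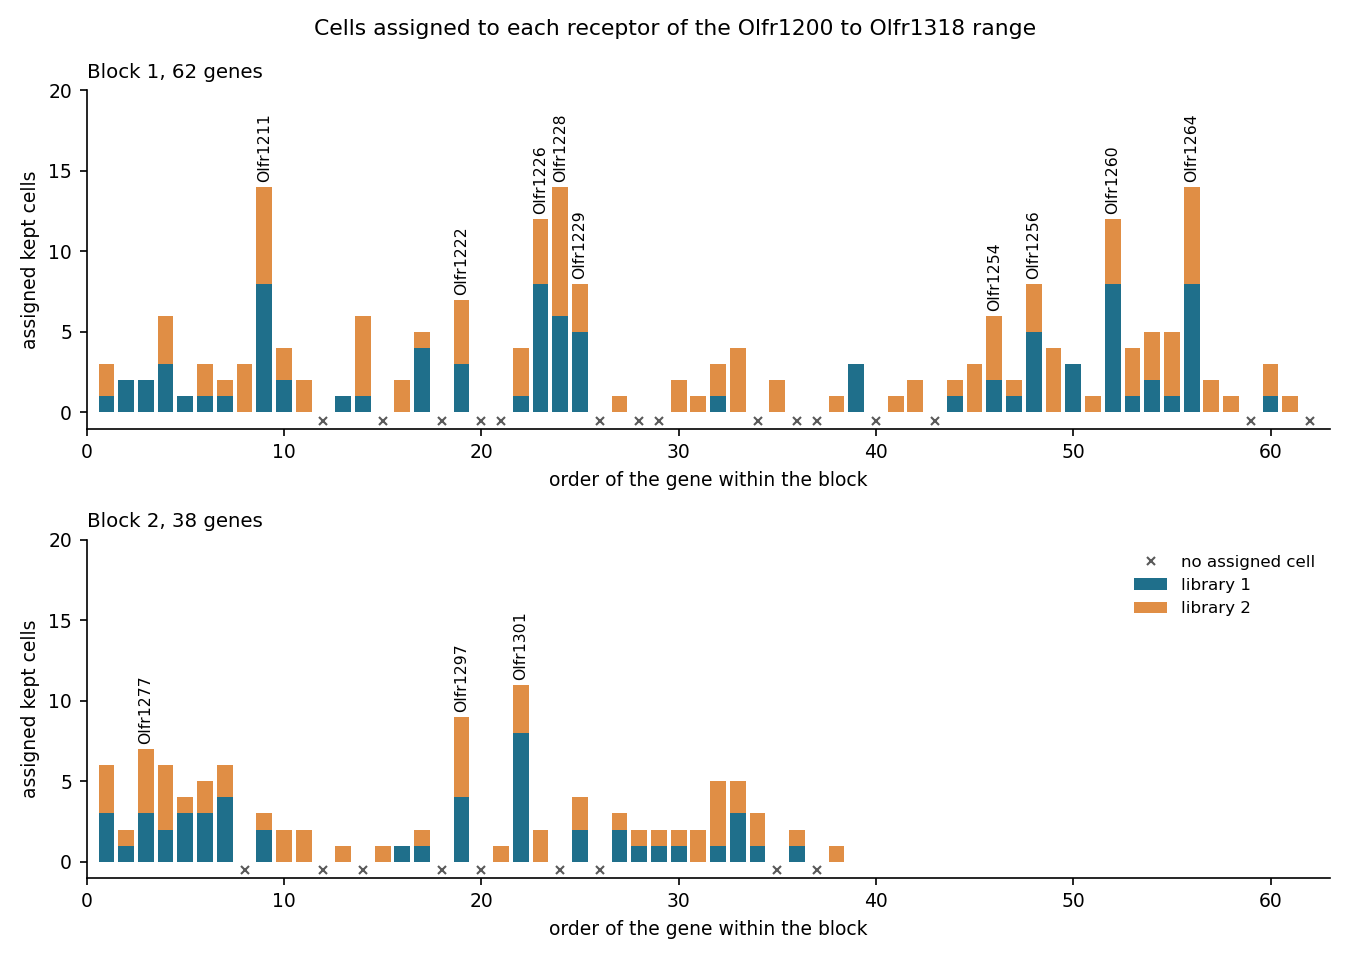
Kept cells assigned to each member (y axis), stacked by library (blue library 1, orange library 2), against the gene's order within block 1 (top) and block 2 (bottom). Crosses mark the 24 members with no assigned cell and names mark the 12 most used members; tall bars such as Olfr1226 and Olfr1228, with 12 and 14 cells, stand a few genes from members without cells.

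The 12 most used members were compared by coding sequence, since near-identical genes can trade reads. A 3′ library reads the end of a transcript, and the 3′ UTRs were not compared. Coding identity therefore does not show which reads could be traded. The lines show 45 bases of each coding sequence, from GENCODE M21 transcripts on GRCm38, at the start of the second transmembrane helix, a conserved stretch of the family. The start was found with the most common in-frame word of 15 bases over all receptor coding sequences, cccatgtacttcttc, which 157 of them hold exactly. Searched on the coding strand with at most 3 mismatches, it was found in 85 of 100 members, in 60 of the 62 genes of block 1 and 25 of the 38 of block 2, and in 90.4% of 1034 other receptor coding sequences. Capitals mark bases that differ from the most common base over those 85 members, which the first line gives.
Most common base: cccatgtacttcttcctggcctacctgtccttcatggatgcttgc
Olfr1228: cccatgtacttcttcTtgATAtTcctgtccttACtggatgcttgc
Olfr1264: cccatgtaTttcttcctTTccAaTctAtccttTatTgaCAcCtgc
Olfr1211: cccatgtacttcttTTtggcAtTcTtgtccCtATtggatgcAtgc
Olfr1226: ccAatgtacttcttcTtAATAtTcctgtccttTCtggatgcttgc
Olfr1260: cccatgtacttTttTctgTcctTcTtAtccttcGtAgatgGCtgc
Olfr1301: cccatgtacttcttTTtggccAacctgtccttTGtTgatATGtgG
Olfr1297: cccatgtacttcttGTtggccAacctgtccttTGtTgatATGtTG
Olfr1256: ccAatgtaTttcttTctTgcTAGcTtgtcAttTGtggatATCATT
Olfr1229: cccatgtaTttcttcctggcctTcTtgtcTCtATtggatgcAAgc
Olfr1222: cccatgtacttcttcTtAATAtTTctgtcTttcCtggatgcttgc
Olfr1277: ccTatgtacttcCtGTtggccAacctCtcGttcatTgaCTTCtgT
Olfr1254: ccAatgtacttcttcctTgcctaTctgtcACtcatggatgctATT
The 12 members differed from the most common bases at 7 to 17 of the 45 positions. Olfr1228 was closest, with 7, and Olfr1256 farthest, with 17. Over the 85 members, 13 of the 45 positions held the same base in all.

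Over whole coding sequences, most members had their closest receptor in their own block, and none had a close one in the other block. Identity is 100% less the share of bases that must be changed, inserted or removed. The median identity of a member to its closest receptor was 89.1%, and that receptor lay in its own block for 90 of 100 members. To the closest gene of the other block the median was 61.4%. Most genes of a member's own block were not close either. The median identity to them was 64.8%, as the median over members. Of the 12 most used members, only Olfr1297 had a receptor at 90% or more, at 91.9%. Olfr1260 was at most 71.9% identical to any other receptor, Olfr1256 72.5% and Olfr1277 73.5%. Olfr1226 and Olfr1228 were 87.6% identical to each other.

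Members with a near copy had fewer cells each. The 48 members with a receptor at 90% identity or more had 2.00 cells each, and the 52 others had 3.904. Of the 26 members with a receptor at 95% or more, 7 had no cell, a share close to the 24 of all 100 members. For 6 of these 7 the near copy was a member with a cell. The near copy of the other, Olfr1274-ps, is outside the range, and its cells were not counted here. In the closest pair, Olfr1315-ps1 and Olfr1316 at 99.2%, the first had 0 cells and the second 2. Whether reads of such pairs were lost or moved to the other copy in the authors' counting was not tested. The use of members with a near copy is given as uncertain because of their coding sequence, not because of these counts. How alike their 3′ UTRs are was not examined.

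Most member cells of the OSN classes were mature. Omp, the olfactory marker protein, and Gap43, a growth cone protein of young neurons, were among the markers that named the classes. Their levels therefore describe the classes and do not test the names. Levels are in CPM, each gene's UMIs scaled to a fixed total of 1e+06 over the summed cells. The 148 member cells of the mature class had 5457 CPM of Omp and 56.0 CPM of Gap43. The 45 immature ones had 144 CPM of Omp and 1956 of Gap43, and the 51 of cluster 5 had 2635 and 698. Of mature plus immature member cells, 76.7% (70.1 to 82.5) were mature, against 71.2% (68.4 to 73.9) for other receptors. In library 1 the share was 85.4% (76.3 to 92.0) for members and 80.7% (76.7 to 84.4) for others. In library 2 it was 69.2% (59.4 to 77.9) and 64.8% (60.9 to 68.5). The member share was the higher in both libraries, with overlapping intervals, and both groups were lower in library 2.

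Weighted by receptor rather than by cell, the members' mature share was 70.0%, over 67 receptors with a mature or immature cell. Some members stood at one end. All 10 cells of Olfr1301 in the OSN classes and all 10 of Olfr1211 were mature, and Olfr1297 had 8 mature cells and 1 in cluster 5. Olfr1254 had 0 mature cells among 6, with 2 in cluster 5 and 2 immature. Olfr1262, named after its values were seen, had 4 immature cells, 1 of cluster 5 and 0 mature.

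Members were receptors of the Ncam2 side of the epithelium. Nqo1, a quinone reductase, and Acsm4, an acyl-CoA synthetase, mark dorsal OSNs, and Ncam2, a cell adhesion molecule, marks the other zones. A mature cell with a UMI of any of the 3 was scored by whether it had more Ncam2 than Nqo1 plus Acsm4 UMIs. Of 62 scored member cells, 59 were on the Ncam2 side, 95.2% (86.5 to 99.0), with 29 of 30 in library 1 and 30 of 32 in library 2. Block 1 had 42 of 45 and block 2 had 17 of 17. Of other receptors' cells, 57.5% (52.6 to 62.3) of 412 were on the Ncam2 side, and for Olfr987 to Olfr1199 61.7% (46.4 to 75.5) of 47.

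The levels gave the same order. Nqo1 had 0 UMIs in the 76 mature member cells of library 1, an upper limit of 8.25 CPM, and 8.43 CPM (1.74 to 24.6) in the 72 of library 2. In cells of other receptors it was at 187 (168 to 209) and 239 (217 to 261) CPM. Acsm4 was at 2.24 (0.0566 to 12.5) and 2.81 (0.0711 to 15.7) CPM in members and 84.6 (71.5 to 99.4) and 76.8 (65.0 to 90.1) in others. Ncam2 was near equal, 87.2 and 107 CPM in members and 94.9 and 88.5 in others, so the members were set apart by lacking the dorsal markers and not by more Ncam2. Only 2 of 148 mature member cells had an Nqo1 UMI. Among neutrophil-like cells, a blood class that should lack it, the share was 1.31% at a median of 4835 UMIs per cell, and mature member cells had a median of 5358.

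Few members had enough scored cells to compare within a receptor. Of the 6 members with 3 or more, 4 had all cells on the Ncam2 side and 2 had cells of both sides. All 6 scored cells of Olfr1264, all 5 of Olfr1297 and all 3 each of Olfr1301 and Olfr1256 were on the Ncam2 side. The 3 member cells scored on the other side had Olfr1225, Olfr1240 and Olfr1260, which had 1, 2 and 5 more cells on the Ncam2 side. With nearly all member cells on that side, the cells of 1 member would mostly share it whatever their receptor. Of 32 other receptors with 3 or more scored cells, 19 had all on the Ncam2 side and 11 all on the dorsal side. Nfia, a nuclear factor I gene of ventral OSNs, was at 116 and 84.3 CPM in member cells of libraries 1 and 2 and at 40.6 and 48.3 in others. Of the 5 ventral genes (Ncam2, Nrp2, Nfia, Nfib, Nfix), 4 were higher in members than in others in library 1 and 5 in library 2, with median log2 ratios of 0.42 and 0.32, while the medians over all measured genes were -0.01 and 0.02. The dorsal guidance receptor gene Robo2 was at 51.4 and 61.8 CPM in members and 88.6 and 109 in others.

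**Figure D3:**
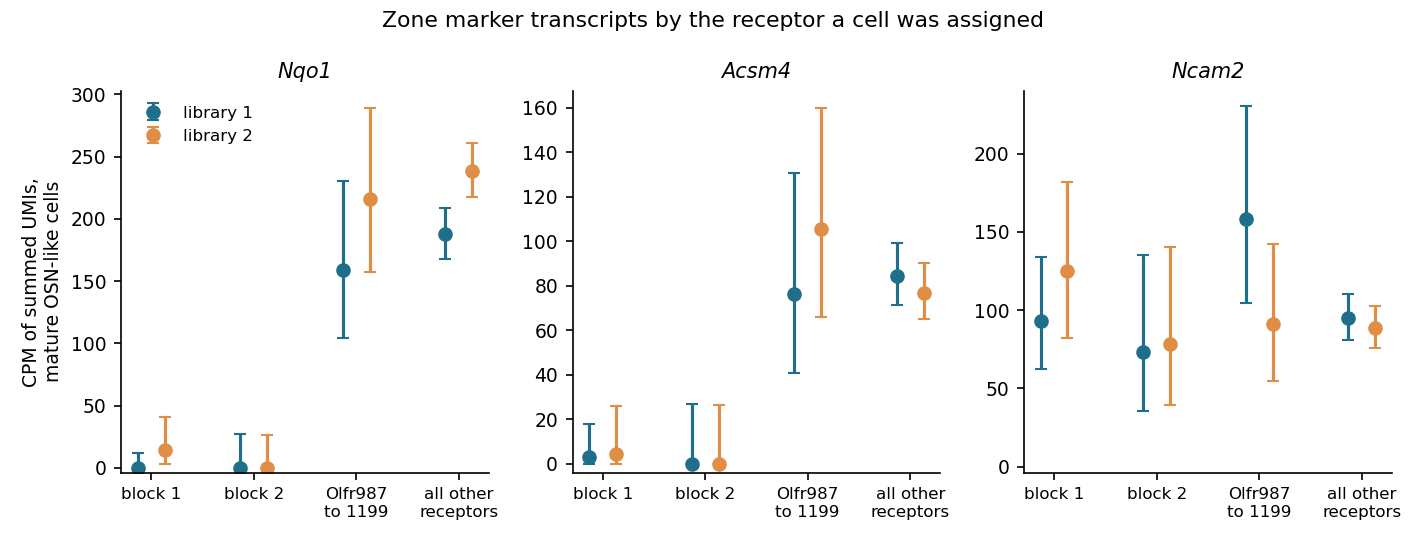
Summed UMIs in CPM (y axis) of Nqo1, Acsm4 and Ncam2 in mature OSN-like cells by the group of the assigned receptor (x axis) and library (blue library 1, orange library 2). Points are levels with exact 95% Poisson bars; Nqo1 and Acsm4 lie near 0 in both blocks and at 76.8 to 239 CPM in cells of all other receptors (which include Olfr987 to Olfr1199), while the Ncam2 intervals of the groups overlap within each library.

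Few other genes set member cells apart. Of the genes with at least 50 CPM and 10 UMIs in the higher group of each library, 0 of 3109 were 2-fold or more higher in members in both libraries (0%) and 3 of 3280 were 2-fold or more lower in both (0.0915%). The 3 were Nqo1, Acsm4 and Cartpt, which encodes the precursor of the CART neuropeptides. Cartpt was at 329 (278 to 386) and 410 (346 to 482) CPM in members and at 1410 (1355 to 1466) and 1154 (1107 to 1203) in others. It moved with zone among other receptors, with 3046 and 2715 CPM in their Nqo1- and Acsm4-side cells and 920 and 807 in their Ncam2-side cells. Against these Ncam2-side cells, member cells of the same side had 279 (208 to 366) and 463 (359 to 587) CPM, less than 2-fold lower in library 2.

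The measured genes of receptor choice, transport and signalling differed less than 2-fold between member and other cells. Some of them, such as Gnal and Rtp1, were also markers that named the mature class of both groups. Of 14 measured genes of receptor choice and trafficking, 0 differed 2-fold in either library. Lhx2, a homeodomain factor of receptor gene enhancers, was at 470 and 419 CPM in members and 470 and 408 in others, and the receptor transporter gene Rtp1 at 666 and 694 against 756 and 670. Of 13 transduction genes, 0 differed 2-fold. Gnal, which encodes the Golf alpha subunit, was at 1992 and 2001 CPM in members and 2203 and 1944 in others. Smaller differences remained. Slc12a2 had 322 (272 to 379) and 362 (303 to 431) CPM in members. In others it had 445 (415 to 478) and 464 (435 to 495). Emx2 was higher in members, at 271 and 222 CPM against 190 and 185, with intervals that overlapped in library 2. The medians of the lists' log2 ratios of members over others lay between -0.15 and 0.04.

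Activity genes differed between the libraries in member cells and in others. S100a5, a calcium-binding protein raised by activity, was at 3240 (3075 to 3411) CPM in the 76 mature member cells of library 1 and 12513 (12148 to 12886) in the 72 of library 2, a log2 ratio of 1.95. In other receptors' cells it was at 1509 (1452 to 1568) and 15701 (15526 to 15877), a log2 ratio of 3.38. Member cells thus had the higher level in library 1 and the lower level in library 2. Calb2, the calretinin gene, was at 943 (856 to 1038) and 275 (224 to 336) CPM in members, a log2 ratio of -1.77, and at 1670 (1610 to 1731) and 551 (519 to 585) in others, a log2 ratio of -1.60.

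Most other measured activity-raised and activity-lowered genes shifted as S100a5 and Calb2 did, and the immediate early genes did not shift in 1 direction. Among all 3881 genes measured in mature member cells, 2.34% were 2-fold or more higher and 1.57% 2-fold or more lower in library 2, with a median log2 ratio of 0.00. Of 6 measured activity-raised genes, 6 were higher in library 2 and 5 by 2-fold or more, with a median of 1.64. The other, Cidea, was near equal at 246 and 247 CPM. Pcp4l1 was at 423 (364 to 487) and 1447 (1325 to 1578) CPM. Kirrel2, an adhesion molecule of axon sorting, was at 62.6 (41.6 to 90.5) and 183 (141 to 233). Of 6 activity-lowered genes, 5 were lower and 3 by 2-fold or more, with a median of -1.004: besides Calb2 these were Kirrel3, at 112 (83.0 to 147) and 53.4 (32.1 to 83.4) CPM, and Efna5, an ephrin of axon guidance, at 244 and 118. Of 5 immediate early genes, 3 were higher, 0 by 2-fold, and the median was 0.02. Egr1 was higher in library 2, at 89.4 (63.9 to 122) and 166 (126 to 214) CPM. Fos was lower, at 577 (509 to 652) and 424 (359 to 498). Which side of the nose a library came from is not known here, so the directions carry no statement on occlusion, and library and side cannot be told apart.

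Single cells showed the same shift and more mixing in library 1. A UMI of S100a5 was found in 46 of 76 member cells of library 1, 60.5% (48.6 to 71.6), and 66 of 72 of library 2, 91.7% (82.7 to 96.9), at medians of 5954 and 4898 UMIs per cell. In other receptors' cells the shares were 40.5% (35.3 to 45.9) and 85.9% (82.2 to 89.1), at 4997.5 and 4764. Sustentacular-like cells, which do not express the gene, had a UMI in 27.1% at a median of 6227 UMIs, but at only 66.7 CPM. S100a5 UMIs outnumbered Calb2 UMIs in 38 of 76 member cells of library 1, 50% (38.3 to 61.7), and in 24.4% (20.002 to 29.3) of the 348 of other receptors. In library 2 they did so in 84.7% (74.3 to 92.1) of member cells and 78.4% (74.1 to 82.3) of others. Without Olfr1260 the member share in library 1 was 45.7% (33.7 to 58.1). By block it was 59.6% (45.1 to 73.0) in block 1 and 29.2% (12.6 to 51.1) in block 2.

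A single receptor carried much of the S100a5 of library 1. The 6 mature cells of Olfr1260 there held 610 of the members' 1449 S100a5 UMIs, 42.1%, with between 23 and 156 UMIs each, and its 3 cells of library 2 held 75, 107 and 150. All 9 cells were high, at 114 to 332 UMIs per 10000, and 8 of the 9 had no Calb2 UMI, the ninth having 1. Without this receptor the members' S100a5 was at 2029 CPM in library 1 and 11919 in library 2, a log2 ratio of 2.55. In the Ncam2-side cells alone the ratio was 1.46 for members, Olfr1260 included, and 3.53 for others.

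Olfr1297 was the opposite case. Its 4 mature cells of library 1 and 4 of library 2 had 0 UMIs of S100a5 among 2276 to 5138 UMIs per cell, and every one had Calb2, with 3, 4, 13 and 16 UMIs in library 1 and 1, 2, 3 and 14 in library 2. Olfr1301, of the same block, had S100a5 in 6 of 7 cells of library 1, with 4 to 8 UMIs, and in all 3 of library 2, with 3, 8 and 31. Olfr1226 also stayed low: its 3 cells of library 1 had 0 S100a5 UMIs and 10, 21 and 24 of Calb2, and its 3 cells of library 2 had 1, 4 and 8 of S100a5 and 5 to 7 of Calb2.

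Other members differed widely between the libraries. Both Olfr1222 cells of library 1 had 0 S100a5 UMIs, with 8 and 13 of Calb2, and both of library 2 had 108 and 133, with 0 of Calb2. The 3 Olfr1264 cells of library 2 had 37, 41 and 67 S100a5 UMIs and 0 of Calb2, and the 6 of library 1 had 0, 0, 2, 2, 20 and 43. The 7 Olfr1211 cells of library 1 had 0 to 10 and the 3 of library 2 had 16, 35 and 40, without overlap. For Olfr1264 the UMIs of the libraries overlapped in 1 cell, and per 10000 UMIs of the cell they did not, with at most 48.4 in library 1 and at least 76.2 in library 2.

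Cells of the same receptor and library could differ. In library 1, 2 of the 4 Olfr1229 cells had 33 and 36 S100a5 UMIs and 0 of Calb2, and the other 2 had 0 of S100a5 and 11 and 13 of Calb2, at 6400 to 7422 UMIs per cell. In contrast all 3 Olfr1228 cells of library 1 had 41 to 68 S100a5 UMIs, more than the 10 in its single mature cell of library 2. Counted by receptor, S100a5 was higher in library 2 for 16 of the 19 members with a mature cell in each library. It was lower for Olfr1220 and Olfr1228, each with 1 cell in library 2, and at 0 in both for Olfr1297. Several of the 16 also had only 1 mature cell in library 2, most of them with only 1 in library 1 as well. For other receptors S100a5 was higher for 98 of 116. Calb2 was lower in library 2 for 15 of the 19, and for 92 of the 116 other receptors.

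**Figure D4:**
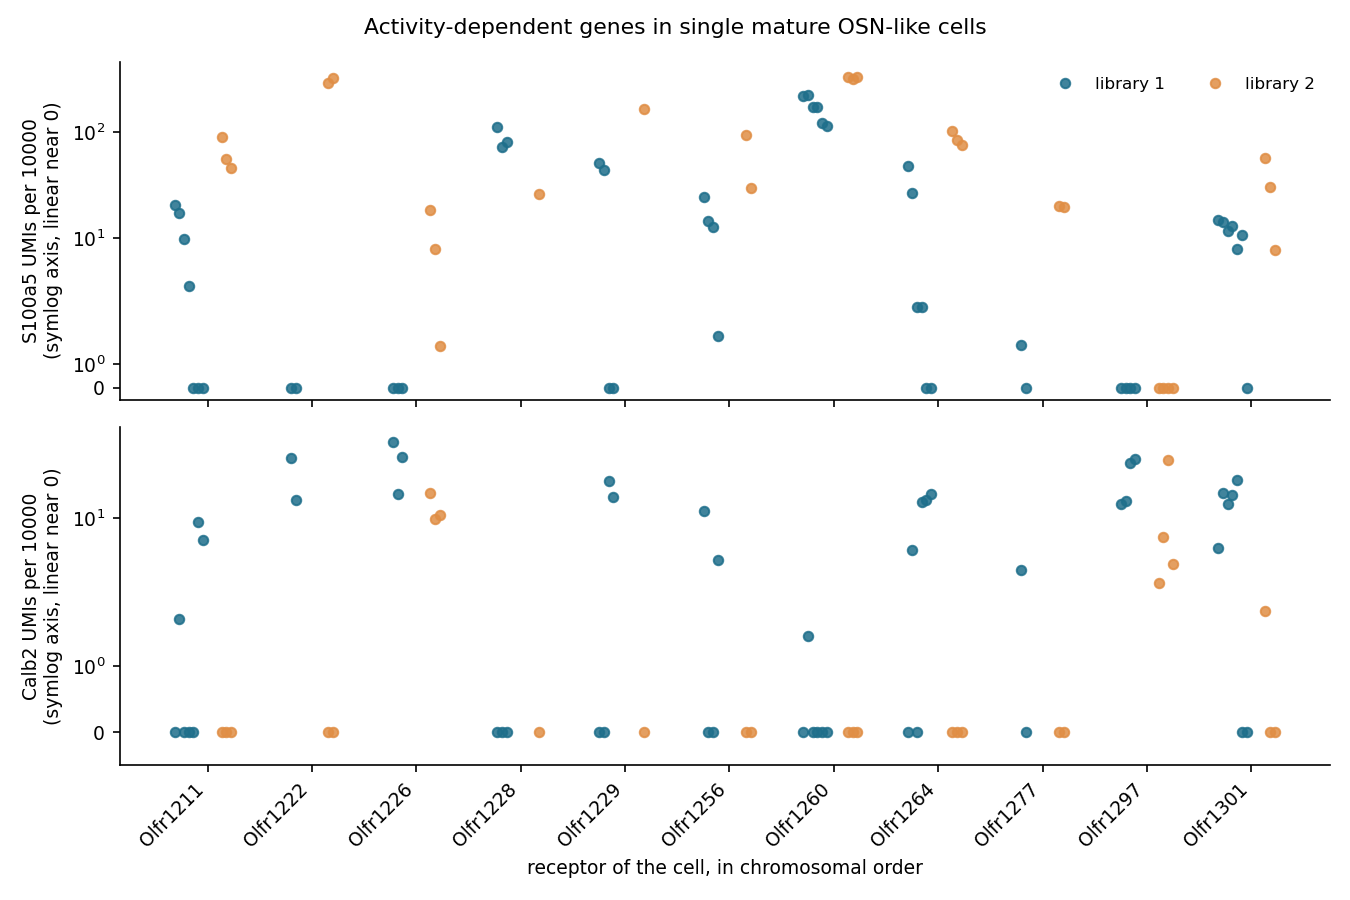
S100a5 (top) and Calb2 (bottom) UMIs per 10000 UMIs of the cell (y axes, symmetric log scale, linear near 0) in each mature OSN-like cell of the 11 most used members that have such cells, by receptor in chromosomal order (x axis) and library (blue library 1, orange library 2). Each point is a cell; Olfr1260 is high in S100a5 in all 9 cells, Olfr1297 is at 0 in all 8, and Olfr1229 has cells of both kinds in library 1.

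Member cells of block 1 held more UMIs of their receptor. The UMIs of the assigned receptor had a median of 64 (53 to 77, interval of the median) per mature cell in block 1, 40 (25 to 48) in block 2 and 41 (38 to 43) in other receptors. The medians of block 1 were 70 and 58.5 in libraries 1 and 2, those of block 2 39.5 and 40, and those of other receptors 43 and 40. Per 10000 UMIs of the cell, the medians were 121, 78.9 and 85.9, with block 1 again the highest. In immature cells block 1 had a median of 50 (28 to 56) and block 2 13 (10 to 20), with 18 (17 to 21) for other receptors. The median annotated 3′ UTR, among genes with one, was 2193 bases in block 1, 1795.5 in block 2 and 1650.5 in other receptors, also highest in block 1. Its part in the levels was not tested. A 3′ count has no length term, so these are orders of detected UMIs.

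Levels differed between receptors. The 6 mature Olfr1226 cells had 103 to 239 UMIs of it, with a median of 154, and the 4 Olfr1228 cells 126 to 343, with a median of 153. Olfr1264 had 61 to 136 and Olfr1260 31 to 131. At the low end, the 10 Olfr1211 cells had 9 to 38, with a median of 20, and the 10 Olfr1301 cells 14 to 73, with a median of 28.5, so no Olfr1211 cell reached any Olfr1226 or Olfr1228 cell. Between them lay Olfr1297, with 21 to 58, Olfr1222, with 47 to 73, and Olfr1229, with 46 to 84, whose ranges overlap. The highest levels were in the 2 mature cells of Olfr1253, 380 and 547 UMIs, and the lowest among members with 5 or more mature cells in Olfr1220, 6 to 18; both were named after their values were seen.

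**Figure D5:**
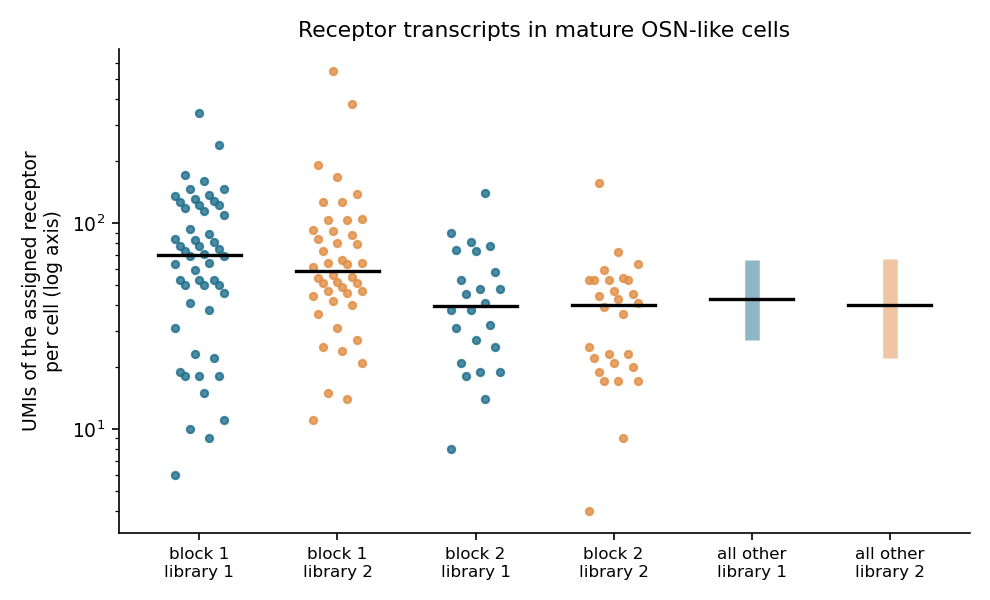
UMIs of the assigned receptor per mature OSN-like cell (y axis, log scale) for block 1 and block 2 by library (points are cells, black lines medians) and for all other receptors (bars span the middle 50% of cells, black lines medians). Block 1 medians, 70 and 58.5, lie above those of block 2 and of other receptors, 39.5 to 43, and points of all groups overlap.

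Second receptors were about as common in member cells as receptor UMIs were in cells that use no receptor. With each cell thinned to 2000 UMIs, 12.03% (8.21 to 16.8) of 241 member cells of the OSN classes and cluster 5 had a UMI of another receptor. The share was 11.3% (9.66 to 13.1) for other receptors and 12.7% (11.1 to 14.3) in sustentacular-like cells. Without thinning the shares were 22.8%, 24.3% and 32.8%. From 2 UMIs on, thinned, they were 2.49% (0.919 to 5.34), 2.19% and 1.37%. Of the 29 member cells with a second receptor, 6 had a member of the same block, 14 of the 150 such cells of other receptors had a member, and so had 36 of the 213 sustentacular-like cells with a receptor UMI. The assigned receptor held 99.4% of receptor UMIs in mature member cells. Receptor assignment had already left out cells in which other receptors held too large a share of receptor UMIs. This rule limits the second-receptor shares of member cells and of other receptors' cells, and sets a lower bound for the 99.4%. Sustentacular-like cells were not selected by it. The likeness of the shares therefore does not show how often neurons use a second receptor.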

How the data were processed

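UMI counts per gene and cell were deposited by the authors as a joint matrix of both libraries; per the submitters' processing notes Cell Ranger 3.0.2 and mm10 were used. The members and the gene lists were chosen with earlier results of these data known. Barcodes below 1000 UMIs or 500 genes, or above 10% mitochondrial UMIs, were left out. Doublets were not called or removed; an alternative left out the cells of highest UMI counts. Cells were clustered with scanpy 1.11.5 (2000 variable genes, 30 principal components, 15 neighbours, Leiden resolution 1), without receptor and mitochondrial genes. The activity, immediate early, zone and axon sorting lists and genes 2-fold or more different between the libraries in OSN-like cells were also left out. The transduction and receptor choice and trafficking lists were not left out as lists. Classes were named from markers, among them Gap43 and, of those 2 lists, Omp, Gnal and Rtp1. Counts were summed per class and library and given as CPM; ratios used a pseudocount of 1 CPM. Samples could not be matched to libraries, so no test was made and values carry exact 95% intervals for counting error. The calls were tested on simulated data. Named members were the 12 with most assigned kept cells, and named genes were those called between member and other cells, up to 10 in each direction, and any gene of the lists (dorsal and ventral zone, activity-raised and activity-lowered, immediate early, axon sorting, transduction, receptor choice and trafficking). Coding sequences were compared with edlib 1.3.9.post1 as edit distance. Alternatives covered the filters, receptor assignment, clustering, weighting and thinning, and 12 of the 77 values they gave came from alternatives chosen after seeing the data, as was the word used to place the printed sequences.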

Additional observations from a re-analysis of the deposited data

How the results depend on the processing

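No paired analysis was possible because each side had 1 library, and no replicate could be left out. Of 77 alternatives, 56 stayed within the counting interval or 1.5 times the count, and 21 moved. The 56 include some that could not move. Leaving out the cells of highest UMI counts removed 0 mature member cells, so the S100a5 ratio was unchanged. The limit for counts was wide: 51 members with a cell in library 1 alone counted as unmoved from 76. A reversal was defined only for the 12 alternatives of the S100a5 log2 ratio, of which 0 reversed. The cause of the moves was not tested. The usage share, 15.8%, was 13.7% with at most 5% mitochondrial UMIs and 18.3% in library 1 alone. The mature share, 76.7%, was 85.4% in library 1, 69.2% in library 2 and 70.0% with receptors weighted equally. The S100a5 log2 ratio, 1.95, was 2.05 at Leiden resolution 2.0, 2.07 without the most used member, 2.27 with receptors weighted equally, 1.79 in cells with more Omp than Gap43, 2.19 when all variable genes were clustered, 2.55 without Olfr1260 and 1.46 in Ncam2-side cells. Genes higher in members, 0, were 2 from 20 CPM, 3 in cells with more Omp than Gap43, 3 in Ncam2-side cells and 4 when all variable genes were clustered. Genes lower, 3, were 12, 8 and 5 in the first 3 of these, and Cartpt was not among the 5. Second receptors, 12.03%, were 22.8% without thinning and 2.49% from 2 UMIs. The zone share ranged from 88.9% to 98.3% over its alternatives. Counts of single cells limit every value for 1 receptor.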
